A study of Homo sapiens with 9 samples.

Results

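Long intergenic non-coding RNA (lincRNA) loci that the array design probed on a single strand were read in human hNT2 cells on 9 one-colour arrays. The array names such a probe by its locus, as lincRNA, a chromosome, a start and an end on genome build hg19, and an F or R. A probe was taken where its interval occurred with F only or with R only among all names on the array. This gave 3599 probes at 3177 loci, which were 8.49% of the 42405 non-control probes. Another 4664 probes covered 2114 loci named with both letters. The rule read names only, so no measured value chose these loci.

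hNT2 is an embryonal carcinoma line that takes a neural path in retinoic acid, and it served here as a model of early neuronal development. Every group differentiated in 10 µM retinoic acid for 4 days (96 h). The control group had retinoic acid alone, a second group also had 1 µM paraoxon, and the last also had 5 µM mipafox. Both compounds are organophosphates, which block serine esterases. Each group had 3 arrays, named A, B and C. The series' design text calls them biological replicates whereas the methods speak of technical ones, so p-values measure the spread between arrays and may miss that between cultures. All groups came from 1 cell line at 1 time point, and no undifferentiated culture was analysed here.

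The arrays lay on 2 slides. Control A, B and C shared slide 1 with mipafox A, and paraoxon A, B and C shared slide 2 with mipafox B and C. Paraoxon and control therefore met on no slide, and slide and paraoxon were linked except through the mipafox arrays. The 75th percentile of signal ran from 802 to 1590 intensity units per array. All 7 pluripotency genes with a probe, POU5F1 and SOX2 among them, all 6 retinoic acid response genes and 5 of 6 neural genes were well above background on 9 arrays, and SOX1 was so on 1. Of 6 genes of blood, liver and endothelial cells, 4 were well above background on 9 arrays. VWF had a level of -2.55, PTPRC, CD3E and PECAM1 lay at -5.45 or lower, and APOA2 was above background on no array. PTPRC, the leukocyte common antigen, had a log2 fold change of 1.15 with paraoxon, while CD3E, PECAM1 and VWF had 0.30, 0.07 and 0.08, and its part in the results was not tested.

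lincRNAs are spliced, often polyadenylated transcripts from loci between protein-coding genes. Many are restricted to few cell types, many are present at few copies per cell, and some act on chromatin, on splicing or as sponges for small RNAs. Transcription can run on both strands of such a locus, and a probe reads only RNA of the strand whose sequence it carries. F probes carry the sequence of the plus strand and R probes that of the minus strand. All 1761 F probes mapped to the plus strand and all 1822 mapped R probes to the minus strand, and another 16 probes had no position.

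"Probed on one strand" held for exact intervals and not for the DNA. Of the 3599 probes, 2677 (74.4%) lay at a locus that overlapped a lincRNA locus of the opposite letter with other end points, and 1732 (48.1%) had a probe of the opposite strand inside their interval. Likewise 2206 overlapped a locus named with both letters. Merging overlapping intervals left 1524 regions, of which 919 held 1 probe and 305 held both orientations. Most loci (2859) had 1 probe and the rest had 2 to 5, so neighbouring probes are not independent readings. Intervals spanned 70 to 1392201 bases, with a median of 8201, against 13822.5 for loci named with both letters.

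Probe sequences show what such a design measures. A complementary pair of 60-base probes from SNHG5, a small nucleolar RNA host gene on the minus strand of chromosome 6, is shown because the same DNA was read on both strands under different interval names. Capitals mark the 58 bases that pair with the other probe.
A_19_P00316701 (R, chr6:86386850-86386909): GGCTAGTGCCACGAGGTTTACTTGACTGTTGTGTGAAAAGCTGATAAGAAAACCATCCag
A_19_P00320669 (F, chr6:86386852-86386911): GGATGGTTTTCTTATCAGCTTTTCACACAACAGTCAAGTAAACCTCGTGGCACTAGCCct
The next pair, on chromosome 7, is shown because 1 strand was well above background on 9 arrays and the other on none. Capitals mark its 46 complementary bases.
A_19_P00316537 (R, chr7:54872583-54872642): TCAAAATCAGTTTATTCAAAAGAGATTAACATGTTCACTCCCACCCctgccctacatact
A_19_P00322497 (F, chr7:54872597-54872656): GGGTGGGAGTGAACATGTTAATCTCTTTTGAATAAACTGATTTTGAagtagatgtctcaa

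Shifted probes of 1 stretch of chromosome 18, minus strand, are shown because they were lower in both exposed groups. They belong to 3 overlapping loci whose names give other start and end points, and capitals mark the 45 bases that all 3 probes hold.
A_19_P00317026 (R, chr18:39101356-39101415): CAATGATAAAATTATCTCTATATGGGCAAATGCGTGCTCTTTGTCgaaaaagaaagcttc
A_19_P00322274 (R, chr18:39101365-39101424): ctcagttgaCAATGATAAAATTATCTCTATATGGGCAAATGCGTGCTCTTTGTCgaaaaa
A_19_P00321817 (R, chr18:39101371-39101430): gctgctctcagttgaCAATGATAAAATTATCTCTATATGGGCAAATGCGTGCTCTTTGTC
Each of the following 4 probes led a comparison between treatments, and none of their bases are capitalised.
A_19_P00322299 (F, chr5:60768740-60768799): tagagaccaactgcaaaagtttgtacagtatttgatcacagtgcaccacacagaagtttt
A_19_P00319674 (F, chr7:8380853-8380912): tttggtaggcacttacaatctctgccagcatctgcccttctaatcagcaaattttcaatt
A_19_P00318183 (R, chr15:95822542-95822601): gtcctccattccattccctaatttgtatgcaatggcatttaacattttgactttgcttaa
A_19_P00322212 (F, chr2:242908331-242908390): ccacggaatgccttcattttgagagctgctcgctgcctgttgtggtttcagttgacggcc

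Detection asked how many of the probes gave signal well above background. The same call passed CD3E, at -6.07, and PTPRC, at -5.45, on 9 arrays, and these were chosen as genes of absent cells. It was therefore not read as proof of transcription. One-strand lincRNA probes were well above background, by the scanner software's own call, for 54.1% ± 3.42 of their number on an array (mean and SD over 9 arrays), with a range of 49.6% to 59.9%. Probes at loci named with both letters stood at 59.5% and all other probes at 72.4%. The one-strand share was below the both-letter share on 9 of 9 arrays, with a mean difference of -5.38 percentage points (-6.68 to -4.06). Because all arrays hold the same probes, such counts and ranges cover the spread between arrays only. The difference was -2.55 points with 1 value per locus and -11.4 points without loci overlapping a both-letter locus. It was below that of the other probes on 9 of 9 arrays, with a mean difference of -18.3 points. By group it was 56.5% ± 2.91 in control, 53.2% ± 2.90 with paraoxon and 52.5% ± 4.02 with mipafox (SD, n = 3 each), and these ranges overlapped.

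Most probes were either on or off throughout. A total of 1561 (43.4%) were well above background on all 9 arrays, 1240 (34.5%) on none, and the rest on 1 to 8. Few switched with treatment. Among the one-strand probes, 17 (0.472%) were well above background on 3 of 3 control arrays and on no paraoxon array, against 179 (0.422%) of all non-control probes. For control and mipafox this count was 14 (0.389%), against 130 (0.307%) of all. In the opposite direction 1 probe (0.028%) was detected on 3 paraoxon arrays and no control array, against 17 (0.040%) of all. For mipafox and control this count was 0, against 1 (0.0024%) of all.

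Levels are given as log2 signal minus the 75th percentile of log2 signal on the same array, so that 0 is the signal of that percentile and each unit is a doubling. The median level over all one-strand probes was -6.25, against -5.95 for loci named with both letters and -3.43 for the other probes. Probe signals also depend on the 60 bases themselves, so these medians describe probes and not copies per cell. Among probes detected on 9 arrays, the pooled SD within treatments had a median of 0.293 for one-strand probes, 0.330 for both-letter probes and 0.226 for the others. The scatter between arrays was thus wider for lincRNA probes than for the rest of the array.

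Detection was lower at the longest loci than at the shortest, though not in even steps. The loci were split into 5 classes of about equal number, and the probes that entered testing (detected on all 3 arrays of 1 treatment or more) were counted in each. Loci of 70 to 1415 bases had 59.5% of their probes tested (424 of 713), and those of 1418 to 5128 bases 58.5%. The next classes, 5151 to 13455 and 13495 to 47551 bases, stood at 50.4% and 50.2%. The longest loci, 47651 to 1392201 bases, had 45.8% (338 of 738). With classes cut instead at 5000, 10000, 20000 and 50000 bases, the tested shares were 59.0%, 47.5%, 55.5%, 47.5% and 46.0%, so the fall was not steady. The median level went from -5.66 in the shortest class to -6.85 in the longest.

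**Figure D1:**
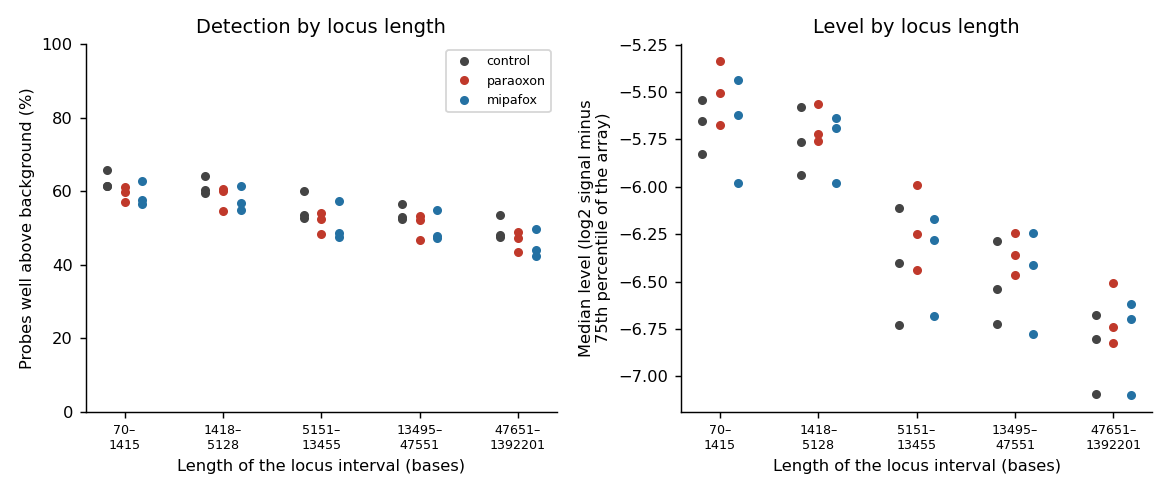
Left, share of one-strand lincRNA probes well above background (percent, from 0) and right, their median level (log2 signal minus the 75th percentile of the array), both against the length of the locus interval in 5 classes (bases). Each point is 1 array, coloured by treatment, and every array has a lower share in the longest class than in the shortest, by 12.3 to 14.2 percentage points.

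The step was present on every array. The share well above background in the shortest class exceeded that in the longest by 13.2 ± 0.691 percentage points (SD, n = 9), positive on 9 of 9. All arrays hold the same probes, so this SD covers the spread between arrays and not that between loci. Length and mean level had a Spearman rho of -0.12 over 3599 probes, which overlap and share arrays, so it is a description only. Length and the GC share of the 60 bases were unrelated (rho 0.006), while GC share and mean level had a rho of 0.29. By GC, 41.4% of probes with 15% to 40% GC were tested, 47.5% of those from 41.7% to 45%, and 74.6% of those from 46.7% to 80.0%. Loci named with both letters did not show the same step within these length limits, with 56.4%, 57.1%, 58.9%, 59.2% and 53.7% tested from the shortest to the longest class. Their 2 shortest classes held only 188 and 63 probes, against 2017, 1535 and 846 in the others, so the short shares are less certain. The 2 shortest classes also overlapped an opposite-strand locus more often (85.0% and 83.4%) than the others (64.8% to 70.2%), and of all one-strand probes 55.2% were tested with such an overlap and 45.9% without. Without the probes whose locus overlapped a both-letter locus, the difference in tested share between the shortest and the longest class was 6.59 in place of 13.7 percentage points, and with a looser detection flag it was 8.14. Its part in the length step was not tested otherwise.

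The tested share spanned a wider range over the 23 chromosomes than over the 5 length classes. Chromosomes are more in number and held fewer probes each, and a range over more and smaller groups tends to be wider. The share of probes tested was highest on chromosomes 19 (72.7%, 72 of 99), 20 (69.5%), 17 (69.2%), X (68.7%), 9 (68.6%) and 15 (68.1%). It was lowest on chromosomes 14 (37.0%, 30 of 81), 5 (41.5%, 103 of 248), 18 (42.2%), 13 (45.2%) and 2 (45.7%, 175 of 383). Chromosome 19, dense in zinc finger genes, and chromosome 14, with the imprinted DLK1-MEG3 cluster, formed the ends of the range. Over the 9 arrays, 68.7% to 78.8% of chromosome 19 probes and 30.9% to 42.0% of chromosome 14 probes were well above background. These ranges did not overlap, but the 2 chromosomes were picked as the ends. On chromosome 19, 69.4% of both-letter and 81.4% of the other probes were tested, and on chromosome 14, 58.2% and 66.9%.

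**Figure D2:**
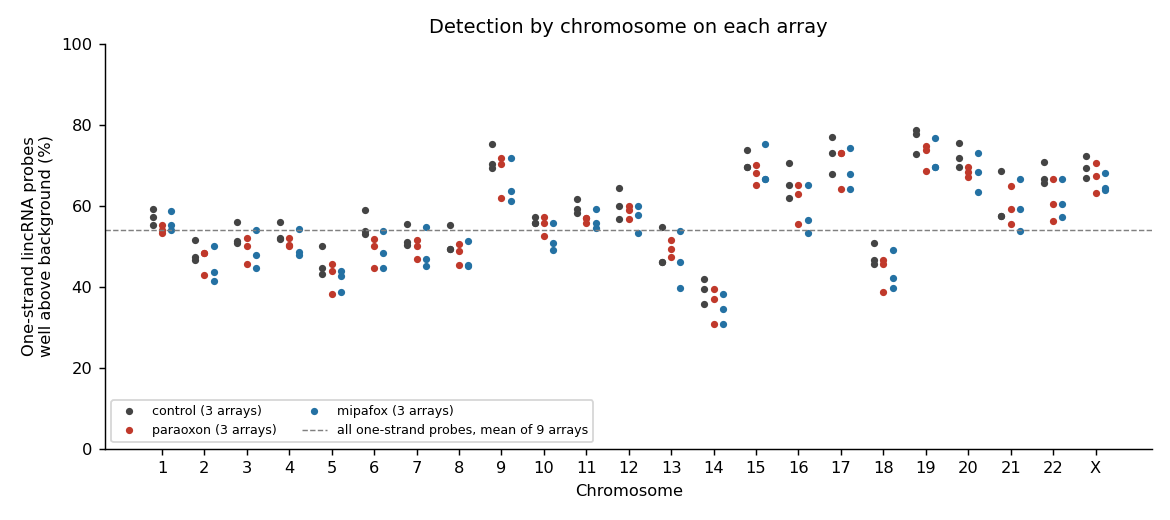
Share of one-strand lincRNA probes well above background (percent, vertical axis from 0) on each chromosome, with 1 point per array coloured by treatment and a dashed line at the mean of 54.1% over all such probes. Chromosomes 9, 11, 15, 17, 19, 20, 22 and X lie above the line on every array, and chromosomes 2, 5, 14 and 18 lie below it on every array.

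Length and GC were also projected onto the chromosomes, one at a time. The length classes present on each chromosome would give 51.2% to 55.0% tested if every class had its overall share, and 3 GC classes would give 48.4% to 61.3%. One-strand probes had a lower tested share than the other probes of the same chromosome on 23 of 23 chromosomes, and a lower one than both-letter probes on 17 of 23. On chromosome 14, the loci in a 2 Mb window around the imprinted cluster had 5 of 20 probes tested, against 25 of 61 elsewhere on the chromosome. Loci that overlap share transcripts, so single chromosomes rest on fewer independent regions than probes.

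Several regions carried many overlapping loci. On chromosome 6, the region of 86386796 to 86388451 around SNHG5 held 31 probes, of which all 22 R probes and 6 of 9 F probes were well above background on 9 arrays. On chromosome 15, the region of 25304708 to 25420017, where the array names IPW, PAR1 and SNORD116-19 of the imprinted Prader-Willi domain, had 28 of 34 probes tested. On chromosome 9, the region of 132245751 to 132275963 had 26 of 26 tested. Other dense regions were quieter. On chromosome 6, the region of 21664464 to 22214734 had 14 of 44 probes tested, and on chromosome 18 that of 53709361 to 53817296 had 8 of 21. In each of these 5 regions, no probe passed the limit of change described below in either exposure. Over all tested probes, 1.45% were past it upward and 0.738% downward with paraoxon, and 0.268% and 0.577% with mipafox. Other dense regions did hold a probe past the paraoxon limit. Examples are 1 of 22 tested in the region of 27042391 to 27176170 on chromosome 22 and 1 of 10 in that of 50656306 to 51263599 on chromosome 13.

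Known long non-coding RNA genes differed in which strand carried the signal. At SNHG5 all 15 member probes on the gene's own strand were well above background on 9 arrays. All 5 such probes at TUG1, a nuclear and cytoplasmic lncRNA first described in the retina, were so too. CRNDE, a lncRNA of embryonic and tumour cells, had 5 of its 6 same-strand probes on 9 arrays and the other on 8. The single opposite-strand probes at TUG1, CRNDE and MEG3 were above background on no array. MEG3, the maternally expressed imprinted RNA, had 2 of 8 same-strand probes on 9 arrays and 4 on none. MIAT, a lncRNA of neural tissue, had 1 of 3 on 9 arrays. The MIAT stretch was bases 27072342 to 27072401 of chromosome 22, and the other probes counted there began at 27138909 and 27170120. The merged region of 27042391 to 27176170 held 18 F probes, 9 of them on 9 arrays.

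**Figure D3:**
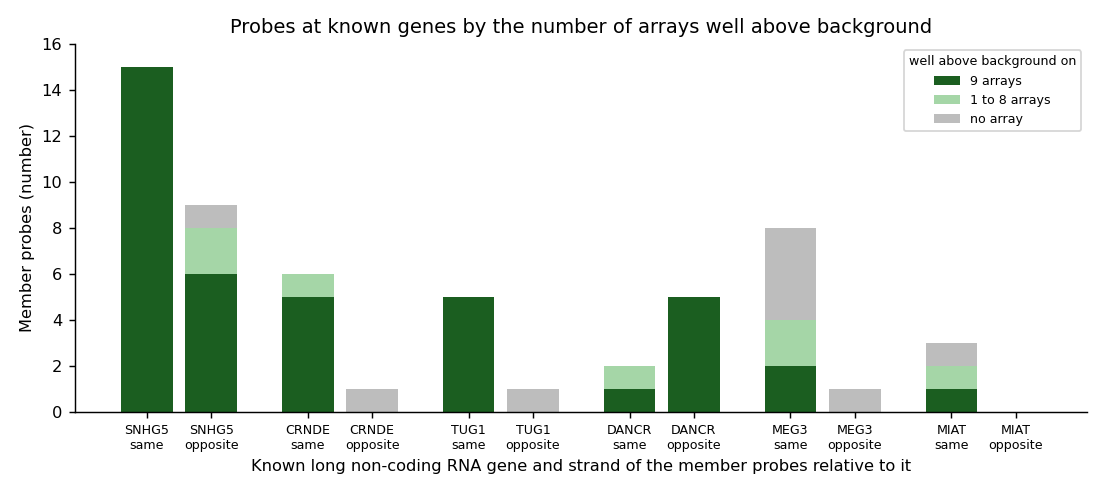
Number of one-strand lincRNA probes (vertical axis) at 6 known long non-coding RNA genes, split by whether they lie on the gene's own strand or the opposite one and coloured by the number of arrays on which they were well above background (9, 1 to 8 or none). SNHG5 and DANCR have opposite-strand probes detected on 9 arrays, and CRNDE, TUG1 and MEG3 have none.

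Antisense probes at 3 of these genes were detected and moved together from array to array. SNHG5 had 8 of 9 opposite-strand probes tested, DANCR, a lncRNA named for holding back differentiation, 5 of 5, and GAS5, a snoRNA host gene linked to growth arrest, 1 of 1. The median level of the 8 SNHG5 probes was -3.47, -4.42 and -5.11 in control A, B and C, -4.83, -5.62 and -3.39 in paraoxon A, B and C, and -3.79, -3.70 and -6.06 in mipafox A, B and C. The 15 probes on the SNHG5 strand had medians of 1.32 to 1.90 over the same arrays. The 5 DANCR antisense probes had -3.52, -4.18 and -4.95 in control, -4.42, -4.64 and -3.42 with paraoxon, and -3.62, -3.69 and -5.40 with mipafox. On the DANCR strand 1 of 2 probes was on 9 arrays, and their medians of -4.70 to -4.30 lay inside that antisense range. At all 3 genes the antisense level spread over 1.98 to 2.66 log2 units within the 9 arrays, and the treatments overlapped. Own-strand medians spread over 2.15 units at TUG1, 1.52 at MIAT, 0.72 at MEG3, 0.59 at SNHG5, 0.40 at DANCR and 0.37 at CRNDE, so a wide spread was not particular to antisense probes. At each of the 3 antisense sets the 4 highest arrays were the 4 with the lowest 75th percentile of signal (802 to 1129 intensity units, against 1210 or more on the others), a pattern picked out after the values were seen. On the gene's own strand 3 of these 4 arrays were among the 4 highest at SNHG5 and MEG3, 2 at CRNDE, and 1 each at DANCR, MIAT and TUG1. The part of array brightness in these levels was not tested.

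Complementary pairs extended this to the whole set. A total of 192 pairs of a one-strand probe and a probe of the opposite strand shared 40 or more complementary bases. In 61 pairs both strands were well above background on 9 arrays, in 32 pairs 1 strand was so on 9 arrays and the other on none, and in 11 pairs neither was on any array. In the chromosome 7 pair printed above, A_19_P00316537 had levels of -0.14, -0.71 and -1.09 in control, -0.25, -0.78 and -0.02 with paraoxon, and -0.74, -0.34 and -1.18 with mipafox. Its partner A_19_P00322497 was above background on none. In the SNHG5 pair both probes were on 9 arrays, A_19_P00316701 at 2.36 to 3.14 and A_19_P00320669 at -5.81 to -3.57.

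The 5 probes with the highest mean level are given with the bases they share with other probes. A_19_P00809968, at a chromosome 18 locus of 5232477 to 5246926 that also holds a probe for LINC00526, ranged from 6.98 to 7.90 over the 9 arrays. A_19_P00316629 on chromosome 16, near PIEZO1, ranged from 6.23 to 6.73. A_19_P00319432 on chromosome 7 ranged from 4.92 to 6.86, and 43 of its bases were complementary to the probe for the pseudogene RP9P. A_19_P00320123 on chromosome 20, with 80.0% GC, ranged from 4.60 to 6.51. A_19_P00808453 on chromosome 12 ranged from 5.16 to 5.93. All 5 were on 9 arrays and their treatments overlapped.

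Of the 20 one-strand probes with the highest mean level, 3 shared 20 or more bases with a probe for a gene elsewhere in the genome. Over all 3599 the count was 16 (0.445%), and this count includes probes that matched on the opposite strand only. The 3 bright probes matched on the same strand. The genes were COX5A, a subunit of cytochrome c oxidase, H3F3A (now H3-3A), which encodes histone H3.3, and NPM1, the nucleolar protein nucleophosmin. The 3 probes are shown because their signal could come from either place, and capitals mark the bases shared with the gene's probe.
A_19_P00808453 (F, chr12:85065888-85065947): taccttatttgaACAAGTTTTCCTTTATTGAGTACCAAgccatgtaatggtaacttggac
A_19_P00808354 (F, chr3:31311424-31311483): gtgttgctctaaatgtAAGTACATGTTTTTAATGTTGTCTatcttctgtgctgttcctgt
A_19_P00800467 (R, chr13:68406089-68406148): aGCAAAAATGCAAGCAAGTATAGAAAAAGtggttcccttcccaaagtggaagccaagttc
The shared stretches were 26 bases for COX5A, 24 for H3F3A and 28 for NPM1. The levels of A_19_P00808354 ranged from 4.89 to 5.66 and those of A_19_P00800467 from 4.88 to 5.39. Which RNA gave these signals was not tested.

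Some probes named as intergenic matched promoters. Against RefSeq windows of build GRCh38, from 250 bases before to 50 after a gene's start, 65 one-strand probes shared 40 or more bases with at least 1 of 35116 windows, and 48 of these 65 (73.8%) were tested. FAM200B had 9 such probes, 8 on the opposite strand of the gene and A_19_P00321063 on its own strand. One probe matched on the strand of STRA6, the receptor for retinol-binding protein and a gene induced by retinoic acid. This probe, A_19_P00317939, had levels of -2.71, -2.92 and -2.97 in control, -2.66, -2.65 and -2.09 with paraoxon, and -2.64, -2.61 and -3.00 with mipafox. It was picked out after its values were seen. Its log2 fold change was 0.40 ± 0.19 (SE) with paraoxon and 0.12 ± 0.19 with mipafox, neither past any limit used here.

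The comparison with paraoxon asked which of these loci changed when cells differentiated in its presence. After adjustment over the 29134 probes tested (limma, Benjamini-Hochberg), 0 of the 1901 one-strand probes tested met the limits of a call, a log2 fold change past 1 in size with an adjusted p below 0.05, and 0% of all tested probes did. The lowest adjusted p of a one-strand probe was 0.0733. At an unadjusted limit (the same size with a raw p below 0.05), 42 one-strand probes were higher (2.21%, against 1.45% of all tested probes) and 15 were lower (0.789%, against 0.738%). The 42 higher probes lay in 42 separate regions on 16 chromosomes, and the 15 lower in 12 regions. The median log2 fold change of the 1901 probes was 0.087, against 0.012 over all tested probes and 0.22 for probes of loci named with both letters. Without control C it was -0.005. By chromosome the median ran from -0.02 to 0.29 and was above 0 on 21 of 23.

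Mipafox gave fewer probes past the limit. No one-strand probe was called after adjustment, and 0% of all tested probes were, with a lowest adjusted p of 0.279 among one-strand probes. At the unadjusted limit 6 were higher (0.316%, against 0.268% of all tested probes) and 16 lower (0.842%, against 0.577%). The median log2 fold change was -0.005, and by chromosome it ran from -0.14 to 0.14 and was above 0 on 14 of 23. Between the exposures, 0 probes (0% of all tested) differed after adjustment, with a lowest adjusted p of 0.998. At the unadjusted limit 14 were higher with paraoxon than with mipafox (0.736%, against 0.227% of all tested probes) and 0 lower (0.0275% of all). Counts at unadjusted limits are descriptions, since some probes pass any such limit. With another background correction (normexp) they were 12 with paraoxon and 4 with mipafox, and without a filter on dim probes 140 and 68.

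**Figure D4:**
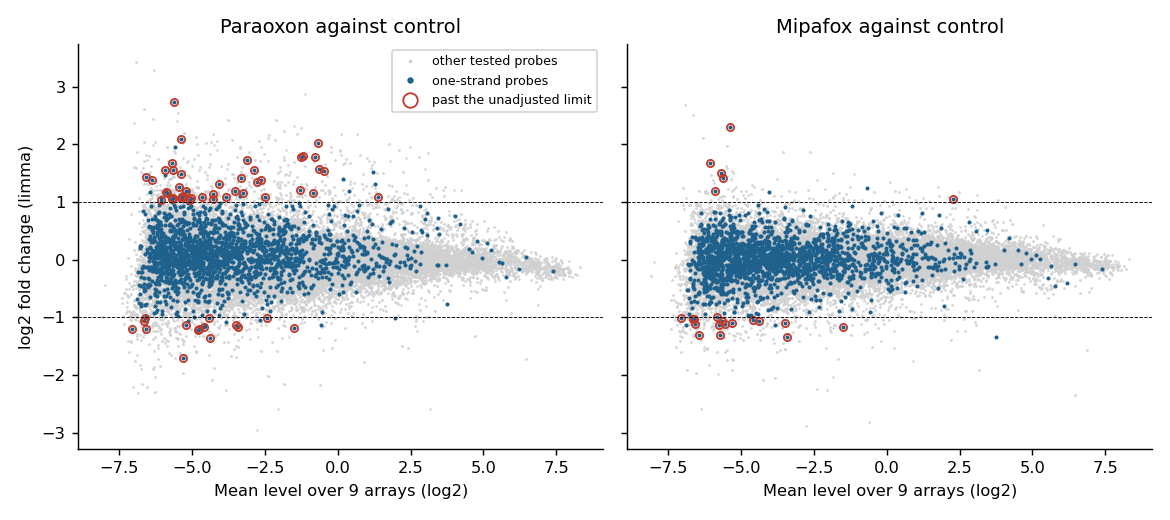
Fold change (log2, vertical axis, shared by both panels) of every tested probe against its mean level over 9 arrays (log2 signal minus the 75th percentile), for paraoxon (left) and mipafox (right) against control. Blue points are the 1901 one-strand probes, grey points all other tested probes and red circles the one-strand probes past the unadjusted limit, 57 on the left and 22 on the right, many of them at low levels, with dashed lines at 1 and -1.

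Fitting with array quality weights or with 2 treatments at a time changed the adjusted counts. With weights, 73 one-strand probes (3.84%) were called with paraoxon, against 2.15% of all tested probes, and 118 (6.21%) with mipafox, against 3.51%. With control and paraoxon alone, 28 (1.48%) were called, against 0.957%. With slide as a block, 55 of the 57 probes past the paraoxon limit kept their direction and 7 (12.3%) were still past it, against 11.6% of all such probes. For mipafox 21 of 22 kept it and 6 (27.3%) were still past, against 17.1%. The block rests on the mipafox arrays alone to link the slides, so slide and paraoxon cannot be told apart without them. Only mipafox A shared slide 1 with control, so a block value for mipafox is that array minus the control mean. Block values for paraoxon rest on the same array, and kept directions are descriptions only.

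Probes higher with paraoxon were led by 4 that had the lowest adjusted p-values. A_19_P00319674, at chr7:8380008-8380973 between named genes, had levels of -3.57, -3.97 and -4.08 in control, -2.90, -2.72 and -2.56 with paraoxon, and -3.19, -3.14 and -3.28 with mipafox. The 3 treatments did not overlap, with mipafox in between. Its log2 fold change was 1.15 ± 0.17 (SE) with paraoxon (limma adjusted p = 0.0733) and 0.67 ± 0.17 with mipafox (adjusted p = 0.419). The slide block left 1.17 and 0.69, so this probe moved little under it.

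A_19_P00317504 (R, chr22:27064266-27065477) lay 8016 bases from the MIAT probe, on the opposite strand. Its levels were -3.26, -3.47 and -3.57 in control, -2.25, -2.25 and -1.79 with paraoxon, and -3.13, -2.50 and -2.84 with mipafox. Both exposed groups lay above control on every array, by 1.34 ± 0.20 with paraoxon (adjusted p = 0.0733, limma) and 0.61 ± 0.20 with mipafox (adjusted p = 0.556). The slide block gave 0.88 for paraoxon. A shifted neighbour with 57 shared bases, A_19_P00316808, changed by 0.79 with paraoxon and 0.47 with mipafox. On the MIAT strand itself, A_19_P00322900 had a log2 fold change of 0.88 with paraoxon, with an adjusted p of 0.32 (limma).

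A_19_P00322212 (F, chr2:242823444-242908568) rose past the unadjusted limit with paraoxon alone. It had levels of -3.74, -4.14 and -3.79 in control, -2.19, -2.45 and -2.77 with paraoxon, and -3.95, -3.28 and -3.47 with mipafox. Paraoxon arrays lay above all others, while mipafox and control overlapped. The log2 fold change was 1.42 ± 0.22 (adjusted p = 0.0740, limma) with paraoxon and 0.33 ± 0.22 with mipafox, and a neighbour with 48 shared bases, A_19_P00321356, had 0.72 and 0.37. Under the slide block A_19_P00322212 had 0.84 and -0.06.

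A_19_P00322116 (F, chrX:53123329-53152957) lay nearest TSPYL2 on the same strand. It was well above background on 1 control array and on 3 arrays of each exposure. Its levels were -6.44, -7.20 and -6.50 in control, -5.46, -5.17 and -4.84 with paraoxon, and -6.13, -5.56 and -5.96 with mipafox. The fold change with paraoxon was 1.56 ± 0.25 on the log2 scale (adjusted p = 0.0740, limma) and 1.19 under the slide block. The shortest tested locus, the 70-base interval chr19:35306021-35306090 of A_19_P00806596, also passed the unadjusted limit, with 1.09 ± 0.26. Its levels were -4.05, -4.63 and -4.57 in control, -3.33, -3.63 and -3.03 with paraoxon, and -4.21, -3.31 and -3.78 with mipafox, so paraoxon alone did not overlap control, and the slide block gave 0.42.

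Probes lower with paraoxon included 3 from the chromosome 18 stretch and A_19_P00322299. This probe (F, chr5:60768604-60790218) lay 72409 bases from the nearest named probe, for ZSWIM6, on the same strand. Its levels were -2.73, -2.56 and -2.90 in control, -3.79, -3.59 and -4.23 with paraoxon, and -3.61, -3.96 and -3.94 with mipafox. Control lay above both exposed groups with no overlap. The log2 fold change was -1.14 ± 0.20 with paraoxon (adjusted p = 0.0740, limma) and -1.11 ± 0.20 with mipafox (adjusted p = 0.279), and the slide block gave -0.80 and -0.88. It was the only probe named for both exposures among the 4 lowest p-values of each.

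**Figure D5:**
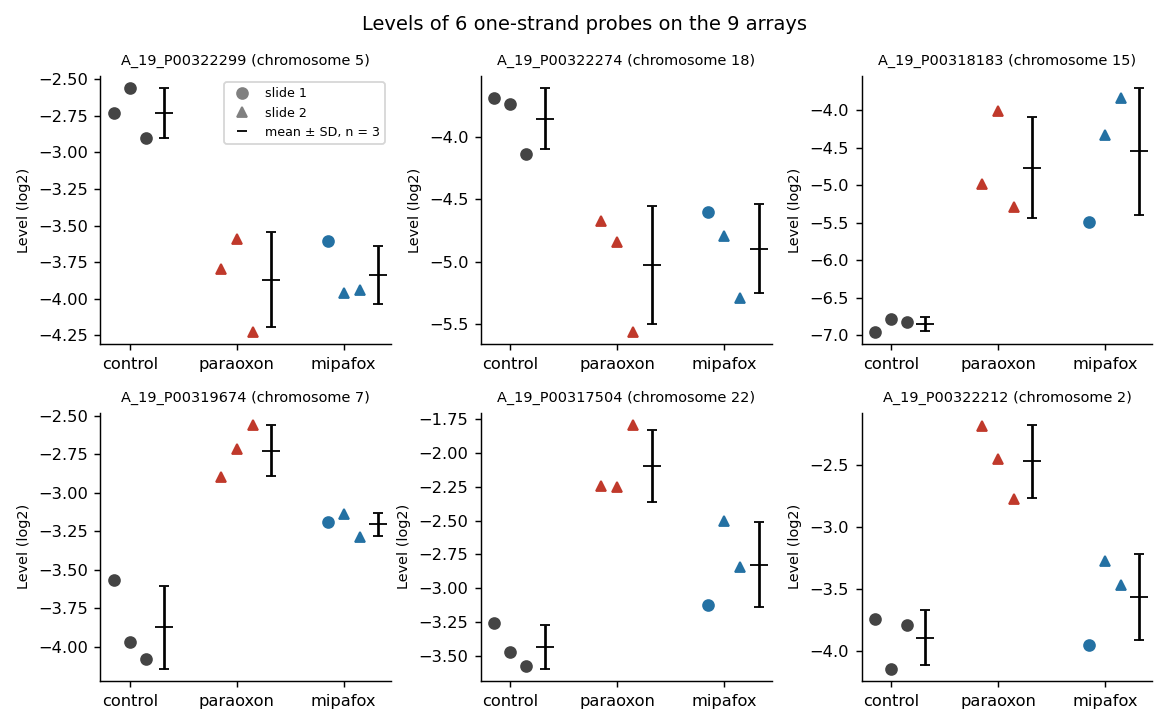
Level (log2 signal minus the 75th percentile of the array, axis range set per panel) of 6 one-strand probes on the 9 arrays, by treatment, with circles for slide 1, triangles for slide 2 and a black bar for the mean ± SD (n = 3). A_19_P00322299 and A_19_P00322274 are lower and A_19_P00318183 higher in both exposed groups, and A_19_P00322212 is higher with paraoxon, with mipafox overlapping control. Slide 2 held no control array and slide 1 no paraoxon array, so only mipafox A is compared with control on 1 slide.

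The chromosome 18 stretch was read by 6 shifted R probes over 91 bases, chr18:39101340-39101430, so it is close to 1 measurement made 6 times. The nearest named probe was KC6, a non-coding transcript, about 41059 bases away from A_19_P00317026 on the same strand. A_19_P00322274 had levels of -3.69, -3.74 and -4.14 in control, -4.67, -4.84 and -5.56 with paraoxon, and -4.60, -4.80 and -5.29 with mipafox. In 5 of the 6 probes control lay above both exposed groups with no overlap. Log2 fold changes ran from -1.20 to -0.71 with paraoxon (adjusted p from 0.0783 to 0.266, limma) and from -1.04 to -0.55 with mipafox (adjusted p from 0.279 to 0.734). The slide block gave -1.21 to -0.63 with paraoxon and -0.71 or lower with mipafox, so all 6 probes kept the direction. Each of these block values rests on mipafox A.

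Little else of these loci was measured. Another 5 one-strand probes had loci overlapping at least 1 of the stretch's loci, and 1 of them was tested. This probe, A_19_P00321194, at chr18:39100348-39100407, lay inside the interval of A_19_P00316385 and outside the other 5 intervals, and had log2 fold changes of 0.18 with paraoxon and 0.005 with mipafox. A_19_P00317026 itself had -1.20 ± 0.25 with paraoxon, and A_19_P00321817, the probe nearest the fold limit from inside, -1.01 ± 0.21. The probe nearest it from outside, A_19_P00318519 on chromosome 11, had 0.993.

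Higher with mipafox were 4 named probes, all dim in control. A_19_P00318183 (R, chr15:95822518-95870329) had levels of -6.96, -6.78 and -6.83 in control, -4.99, -4.02 and -5.29 with paraoxon, and -5.49, -4.33 and -3.84 with mipafox, and was well above background on 2 control arrays. Control lay below both exposed groups. Its log2 fold change was 2.30 ± 0.43 with mipafox (adjusted p = 0.279, limma) and 2.09 ± 0.43 with paraoxon (adjusted p = 0.0865). The slide block gave 1.37 and 0.69. A_19_P00317576 (R, chr2:54284395-54307601) changed by 1.51 ± 0.39 with mipafox and 1.67 ± 0.39 with paraoxon, and its neighbour with 54 shared bases, A_19_P00316026, by 0.73 and 0.95. Under the slide block A_19_P00317576 had 0.85 and 0.68.

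The other 2 were A_19_P00321052 and A_19_P00330145. A_19_P00321052 (R, chr4:28383262-28404481) had -6.78, -6.96 and -7.25 in control, -6.00, -6.07 and -5.64 with paraoxon, and -3.89, -5.53 and -6.57 with mipafox, an SD of 1.35 in that group. Every exposed array lay above every control array, mipafox A on slide 1 was the highest, and the log2 fold change with paraoxon was 1.09 ± 0.54. A_19_P00330145 (F, chr2:192556480-192568755) had -5.96, -6.91 and -6.82 in control and -4.66, -5.40 and -6.06 with mipafox, which overlapped. Their log2 fold changes were 1.67 ± 0.54 and 1.19 ± 0.39, with adjusted p-values (limma) of 0.545 and 0.556. The slide block gave 3.11 and 1.90, each of them mipafox A minus the control mean.

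Lower with mipafox, besides A_19_P00322299, were A_19_P00319522, A_19_P00322729 and A_19_P00801366. A_19_P00319522 (F, chr5:44822311-44822973), nearest MRPS30, had -5.09, -4.90 and -5.53 in control, -5.77, -5.84 and -5.88 with paraoxon, and -6.17, -6.19 and -6.59 with mipafox. The 3 treatments did not overlap, with paraoxon in between. The log2 fold change was -1.14 ± 0.19 with mipafox (adjusted p = 0.279, limma) and -0.66 ± 0.19 with paraoxon (adjusted p = 0.179). A_19_P00801366 (F, chr7:64768415-64791279), nearest the zinc finger gene ZNF92, had -1.31 ± 0.29 with mipafox and -0.83 ± 0.29 with paraoxon. A_19_P00322729 (R, chr5:66995256-67198428) was not well above background on any mipafox array. Control was 2.0-fold higher by the fold for undetected groups described below, which is an estimate and not a minimum. With normexp background the log2 fold change turned to 0.0580.

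Control stood apart from both exposures at a share of loci close to the background. Without overlap, 58 one-strand probes had every exposed array above every control array (3.05%, against 2.77% of all tested probes) and 56 had every exposed array below (2.95%, against 3.97%). Both exposures share the control arrays, so these counts are not independent evidence of a common response. Of these, 2 higher probes were also past the unadjusted limit in both comparisons (0.105%, against 0.144%), namely A_19_P00318183 and A_19_P00317576. The lower ones were 7 (0.368%, against 0.213%).

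The 7 lower probes included A_19_P00322299 and A_19_P00322274, described above. A_19_P00316726 (R, chr1:247353146-247353856), in a cluster of zinc finger genes near ZNF124, had -0.61, -0.56 and -0.96 in control, -1.64, -2.10 and -1.93 with paraoxon, and -1.17, -1.92 and -2.53 with mipafox. Its log2 fold changes were -1.18 ± 0.31 and -1.17 ± 0.31, and the slide block left -0.12 and -0.46. A_19_P00319608 (R, chr2:114735602-114736110), nearest ACTR3, had -1.17 ± 0.37 and -1.34 ± 0.37, with -0.05 and -0.60 under the block. A_19_P00321049 (R, chr15:39460934-39461999) had -1.36 ± 0.44 and -1.06 ± 0.44, with -0.52 and -0.50. For these 3 the block values were smaller in size than those without the block. Of them, the mipafox values alone compare arrays of 1 slide, and the paraoxon values are linked to control through the mipafox arrays.

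A_19_P00321203 (R, chr6:72126155-72129954) lay 1705 bases from the probe for LINC00472 on the same strand. Its levels were -5.58, -5.65 and -6.18 in control, -7.34, -6.72 and -6.93 with paraoxon, and -6.71, -6.54 and -7.52 with mipafox. No paraoxon array was well above background. Every paraoxon level still lay above the lowest level well above background on its array (-7.77, -7.73 and -7.12). The 2.29-fold higher level in control is therefore the measured difference and not a minimum. The log2 fold change with mipafox was -1.12 ± 0.29 (adjusted p = 0.426, limma). A shifted neighbour with 58 shared bases, A_19_P00316985, had -1.20 and -1.02. The last of the 7, A_19_P00320288 on chromosome 8, was detected on the 3 control arrays only. By the fold for undetected groups described below, control was 2.03-fold higher than paraoxon and 2.05-fold higher than mipafox. These folds are estimates and not minimums.

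Several probes of 1 locus showed how far the reading of a change repeated between probes. They were read on the same arrays, so their agreement does not cover the spread between arrays or cultures. At 121 loci with 2 or more tested probes, all probes pointed the same way at 95 (78.5%) with paraoxon and 81 (66.9%) with mipafox, and the median range of log2 fold change within a locus was 0.148 and 0.138. Of 318 loci with several probes, 108 had all of them on 9 arrays, 134 had none on any array, and 6 had 1 probe on 9 arrays and another on none. The 4 loci with 5 probes each were among those with none. Of 275 pairs of one-strand probes that shared 40 or more bases on the same strand, both were tested in 191. In these the sign was the same in 160 (83.8%) with paraoxon and 144 (75.4%) with mipafox.

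Probes with identical sequence under different names set the floor for reading any single value. There were 33 such pairs among the names, 19 with both probes tested. The gap in log2 fold change within a pair had a median of 0.076 with paraoxon and 0.069 with mipafox, and reached 0.834 and 0.417. The longest tested locus, the 1392201-base interval chr13:83007499-84399699 of A_19_P00810856, had 0.38 ± 0.36 with paraoxon and 0.26 ± 0.36 with mipafox, and its treatments overlapped.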

How the data were processed

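RNA from 9 hNT2 samples was labelled with Cy3 and hybridised to 1-colour Agilent arrays with 60-base probes. Per the file headers, the authors' scanner software, Feature Extraction 10.5.1.1, gave each spot a background-corrected intensity (processed signal) and flags (other columns) for outlier spots and for signal well above background, on build hg19. The methods name another array format than the headers, which were followed here. The deposited value tables hold the authors' processed log2 values of the same arrays and served as an alternative. Spots flagged as outliers were left out (0.373% to 0.574% per array) and no spot was saturated. Levels were log2 intensities minus the array's 75th percentile over 58717 non-control spots. A probe was tested if it was detected on all 3 arrays of 1 treatment or more. Tests were limma 3.58.1 (R 4.3.3) fits over all 3 treatments and all 29134 tested probes, adjusted by Benjamini-Hochberg, where a call needed a log2 fold change past 1 in size with an adjusted p below 0.05. A second, unadjusted limit used the raw p.

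For probes below background on every array of a group, a fold was computed against the higher of the probe's own value and the lowest level well above background, per array. Where the probe's own values are the higher, this fold is the measured difference and not a guaranteed minimum. Per treatment and direction, the text names the 4 lowest p-values past the unadjusted limit, up to 6 probes past it in both comparisons, the 5 highest levels, the longest and shortest tested loci, the loci with the most probes and those nearest the limit. Members and lists were chosen with earlier results of these data known. Permutation tests planned for sums over the members were not used. Gene symbols were updated through RefSeq (52 needed no change), and coordinates are those of the files. Of 24 alternatives, effects are given below. The fits were checked on simulated data. The number of arrays, 3 per treatment, limits the precision.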

Additional observations from a re-analysis of the deposited data

How the results depend on the processing

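The results were recomputed under 24 alternatives, and of 208 values of 13 summary results 169 stayed within the spread or within 1.5 times of the value reported. One-strand probes called with paraoxon numbered 73 with array weights and 28 with only 2 treatments fitted, against 0, and 0 to 27 when each array was left out (27 without mipafox A, 3 without mipafox B). Those called with mipafox numbered 118 with array weights and 1 with slide as a block, against 0, and 0 to 2 when each array was left out. Past the unadjusted limit with paraoxon, 57 became 12 with normexp background, 13 with the authors' values, 140 without a filter on dim probes, 119 with the looser detection flag, 100 with array weights and 22 without loci overlapping a both-letter locus, and 58 to 93 when arrays were left out (93 without paraoxon B). With mipafox, 22 became 4, 2, 68, 57, 140 and 8 under the same settings, 7 with detection on all 9 arrays required, 45 with slide as a block, 53 within slide 1, and 13 to 62 when arrays were left out (13 without control B, 43 without control C, 62 without mipafox A). Of the probes past the paraoxon limit 73.7% were higher, against 62.3% with quantile normalization, 83.3% with normexp and 84.6% with the authors' values. With mipafox 27.3% were higher, against 50.0% with either of the last 2, 24.4% with the slide block and 90% with array weights. With the slide block 48.6% of those with paraoxon were higher, and the median of all tested probes moved to 0.10, so that of the one-strand probes, 0.26, is to be read against it.

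The share well above background was 76.2% with the looser flag and 48.1% without loci overlapping a both-letter locus. The gap to both-letter probes was -2.55 percentage points with 1 value per locus and -11.4 without overlapping loci. The median level was -3.98 with normexp and -6.72 without overlapping loci. The span between chromosomes, 35.7 points, was 32.9 with the looser flag, 40.1 without overlapping loci and 33.1 with 1 value per locus. The gap between length classes was 8.14 points with the looser flag, 6.59 without overlapping loci and 12.7 with 1 value per locus. Agreement within loci was 68.9% without a filter and 75.0% to 79.3% with arrays left out. The median fold change ran from -0.005 to 0.18 with paraoxon and from -0.091 to 0.13 with mipafox when arrays were left out. With the replicate letter as a block, 0 probes were called and 60 and 24 were past the limit. Arrays of the same letter had deviations that correlated from -0.60 to 0.57 (median 0.12), and those of different letters from -0.59 to 0.66 (median 0.02). With 9 same-letter pairs and such wide ranges, whether the letters pair the arrays was not settled. Of 608 values of 29 named changes, 1 reversed, the fold change of A_19_P00322729 with mipafox, at 0.0580 with normexp. The cause was not tested in any case. Signal close to background limits these counts, since of the probes past the unadjusted limit 31 of 42 and 9 of 15 (higher and lower with paraoxon) and 1 of 6 and 5 of 16 (mipafox) were well above background on all 9 arrays.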
